A study of Mus musculus with 12 samples.

Results

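Glutamine synthesis and ammonia scavenging in mouse liver were followed through 5 genes chosen by symbol: Glul, Oat, Slc1a2, Rhbg and Gls2. The count table identifies genes by Ensembl identifier, and 4 of these 5 genes had a row among its 28030 identifiers. Rhbg, which encodes an ammonia channel, was not analysed here, and no direction is given for it. Glul, Oat, Slc1a2 and Gls2 all passed the filter on low counts, which kept 12086 genes.

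The libraries were made from hepatocytes of 12-week-old wild-type female mice on normal chow, in 4 groups of 3: fasted pericentral (fasted PC), fed pericentral (fed PC), fasted periportal (fasted PP) and fed periportal (fed PP). For 3 days beforehand all mice fasted 16 h overnight and ate for 8 h by day, and all received 20% sucrose in the drinking water with their food on the last day. The fed groups were taken 4 h into feeding, and the fasted groups 24 h after food and sucrose were withdrawn. Cells of one zone were obtained with digitonin, a detergent that destroys the hepatocytes of the zone it reaches first, so each library is a zone preparation and not a sort of single cells. In such bulk preparations, fewer cells of a type and less RNA per cell cannot be told apart. The comparisons of PC with PP ask how these messenger RNAs differ along the liver lobule, and those of fasted with fed mice ask how they differ with feeding.

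Blood reaches the liver lobule at the portal tract and leaves it at the central vein. Periportal hepatocytes take up glutamine, release its ammonia with the liver glutaminase and build urea. The last hepatocytes before the central vein take up ammonia that has passed the urea cycle and fix it onto glutamate, which forms glutamine. Glul encodes glutamine synthetase, the enzyme of that step. Oat encodes ornithine aminotransferase, a mitochondrial enzyme that turns ornithine into glutamate semialdehyde, a source of glutamate. Slc1a2 encodes GLT-1, a sodium-driven glutamate uptake carrier best known from astrocytes. Gls2 encodes the liver-type glutaminase, which hydrolyses glutamine to glutamate and ammonia.

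A promoter window was available for Glul, Oat and Slc1a2, the 3 genes that were high in PC libraries, and not for Gls2. The stretches upstream of these 3 genes are shown. They come from RefSeq on the build GRCm38.p6, in the direction of transcription, and capitals mark a match to one of 4 heptamers bound by TCF/LEF factors, the DNA-binding partners of beta-catenin. Glul is shown from chr1:153899679-153899928 on the + strand, and Oat from chr7:132576399-132576648 on the - strand. Slc1a2 is shown from chr2:102706188-102706355 on the + strand, which is 168 of the 250 bases before its RefSeq start, ending before an annotated untranslated stretch.
Glul: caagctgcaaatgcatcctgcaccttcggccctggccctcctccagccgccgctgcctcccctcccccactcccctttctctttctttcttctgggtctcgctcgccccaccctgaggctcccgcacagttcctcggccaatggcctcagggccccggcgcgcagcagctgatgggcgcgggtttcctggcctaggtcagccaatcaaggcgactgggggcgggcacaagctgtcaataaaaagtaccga
Oat: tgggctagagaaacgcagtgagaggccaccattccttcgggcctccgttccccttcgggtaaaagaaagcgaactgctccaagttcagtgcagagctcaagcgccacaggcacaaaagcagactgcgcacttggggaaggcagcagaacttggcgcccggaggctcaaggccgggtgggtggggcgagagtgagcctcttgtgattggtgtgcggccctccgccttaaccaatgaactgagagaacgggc
Slc1a2: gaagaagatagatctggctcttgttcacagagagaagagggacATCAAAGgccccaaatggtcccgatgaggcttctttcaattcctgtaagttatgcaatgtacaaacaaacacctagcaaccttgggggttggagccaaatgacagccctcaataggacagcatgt
The heptamers, searched on both strands, were the letters CTTTG followed by AA, AT, TA or TT. The windows of Glul and Oat held 0 matches. The window of Slc1a2 held 1, CTTTGAT read on the other strand, from -207 to -201 relative to the start. Of 32851 promoter windows of 250 bases, 4874 (14.8%) held at least 1 match, so a single match is a common occurrence and is a description only. Guanine and cytosine made up 64.8% of the 250 bases before Glul, 60.0% of those before Oat and 44.8% of those before Slc1a2, against a median of 52.4% over all windows. The RefSeq start of Slc1a2 lies inside the longer gene annotated by GENCODE M21, so other starts of this gene are not covered.

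Libraries held 16245846 to 27449412 estimated counts. The summed level of 14 pericentral markers was 16850 to 27160 CPM (counts scaled to library size) in fasted PC libraries and 17010 to 17780 CPM in fed PC libraries, against 532.2 to 1494 CPM in fasted PP libraries and 1498 to 2494 CPM in fed PP libraries. The summed level of 13 periportal markers was 7623 to 8999 CPM in fasted PC libraries and 2802 to 3483 CPM in fed PC libraries, against 15240 to 21390 CPM in fasted PP libraries and 8260 to 10660 CPM in fed PP libraries. Within each feeding state the labelled zones separated in both lists without overlap. The lists were chosen with earlier results of these data known, so this separation is a description and no independent check of the zones. Across feeding states the periportal sums overlapped, since fasted PC replicate 1, at 8999 CPM, lay above fed PP replicates 1 and 2, at 8260 and 8803 CPM, and every fasted PC library lay above every fed PC library. Pck1, a marker on this list picked after its values were seen, averaged 4524 CPM in fasted PC and 127.9 CPM in fed PC libraries. It was at 4382 CPM in fasted PC replicate 1, so periportal sums of different feeding states also carry the fasting difference of this gene. Summed markers of Kupffer (6 genes), endothelial (8 genes), stellate (6 genes) and bile duct cells (5 genes) stayed at or below 8.27, 14.9, 14.4 and 47.3 CPM in every library, and 6 blood cell markers ranged from 0.383 to 234 CPM, with the highest value in a fasted PC library. Fasted PC replicate 1 stood apart from the other 2 libraries of its group in the genes described here, so values are given with and without it.

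As the mean of both feeding states, Glul was 16.95-fold, Oat 77.6-fold and Slc1a2 201-fold higher in PC than in PP libraries, and Gls2 was 3.96-fold lower, and all 4 differences passed the test. Oat and Slc1a2 also passed in fasted and in fed mice alone, Glul passed in fasted mice alone, and Gls2 passed in neither feeding state alone. Fasting moved none of these 4 genes past the threshold when all libraries were used. In the fit without fasted PC replicate 1, Slc1a2 was higher after fasting in PC libraries and lower after fasting in PP libraries. That library was singled out by its values for these genes, so this is a description only.

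**Figure D1:**
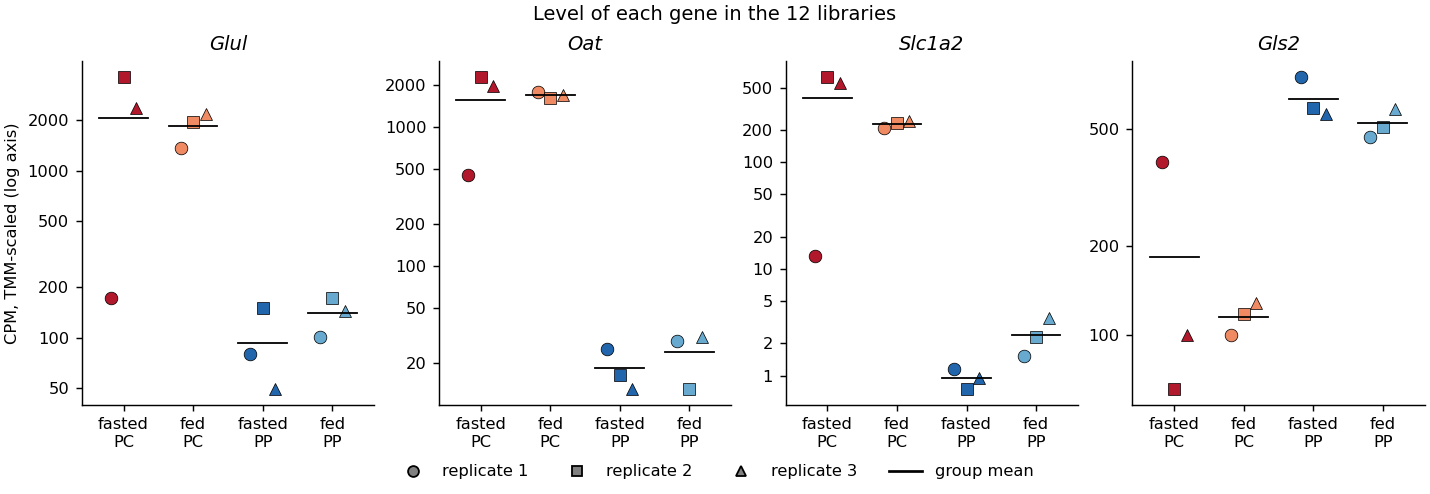
Level of Glul, Oat, Slc1a2 and Gls2 in each of the 12 libraries, in CPM scaled with TMM (trimmed mean of M values), on log axes; point shapes mark the replicate and lines the group mean. Fasted PC replicate 1 lies at 172 CPM for Glul and at 13.1 CPM for Slc1a2, below the other PC libraries, and at 385.6 CPM for Gls2, above them.

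Glul (ENSMUSG00000026473, chromosome 1, 153899944 to 153909723, + strand) was measured at 172, 3639 and 2353 CPM in fasted PC replicates 1, 2 and 3 and at 1372, 1960 and 2171 CPM in fed PC replicates. It was at 79.8, 151.5 and 49.3 CPM in fasted PP replicates and at 101.6, 173.4 and 145.4 CPM in fed PP replicates. Every PC library lay above every PP library of the same feeding state, but fasted PC replicate 1, at 172 CPM, lay just below fed PP replicate 2. Glul averaged 2054 ± 1752 CPM in fasted PC and 1834 ± 414 CPM in fed PC libraries, against 93.5 ± 52.5 CPM in fasted PP and 140.1 ± 36.2 CPM in fed PP libraries (SD, n = 3 each). Fasted and fed libraries of one zone overlapped, so the order of the feeding states within a zone lay inside the spread. The mean PP level was 4.55% of the PC level in fasted mice and 7.64% in fed mice. The kit does not mark strand, and the first exon of Glul overlaps Teddm2 on the opposite strand, which had a median of 2 counts.

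Oat (ENSMUSG00000030934, chromosome 7, 132557478 to 132576398, - strand) was measured at 452.4, 2309 and 1971 CPM in fasted PC replicates and at 1780, 1617 and 1717 CPM in fed PC replicates. It was at 25.5, 16.6 and 13.1 CPM in fasted PP replicates and at 29.1, 13.1 and 30.7 CPM in fed PP replicates. All 6 PC libraries lay above all 6 PP libraries, with fasted PC replicate 1 the lowest of the PC libraries. Oat averaged 1577 ± 989 CPM in fasted PC and 1705 ± 81.9 CPM in fed PC libraries, against 18.4 ± 6.42 CPM in fasted PP and 24.3 ± 9.78 CPM in fed PP libraries (SD, n = 3 each). Fed PC libraries were the most even group for this gene, with a coefficient of variation of 4.80%, against 62.7% in fasted PC libraries. The mean PP level was 1.17% of the PC level in fasted mice and 1.43% in fed mice. Oat lies within the annotated span of Fgfr2 on the same strand.

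Slc1a2 (ENSMUSG00000005089, chromosome 2, 102658659 to 102790784, + strand) was measured at 13.1, 633.8 and 552.4 CPM in fasted PC replicates and at 211.3, 232.4 and 244.0 CPM in fed PC replicates. It was at 1.15, 0.747 and 0.958 CPM in fasted PP replicates and at 1.535, 2.30 and 3.43 CPM in fed PP replicates, where it rested on 16.6 to 66 estimated counts per library. All PC libraries lay above all PP libraries. The fasted PC libraries lay on both sides of the fed PC libraries, while the fasted PP libraries all lay below the fed PP libraries. Slc1a2 averaged 399.8 ± 337 CPM in fasted PC and 229.2 ± 16.6 CPM in fed PC libraries, against 0.953 ± 0.203 CPM in fasted PP and 2.42 ± 0.955 CPM in fed PP libraries (SD, n = 3 each). Its mean PP level was 0.238% of the PC level in fasted mice and 1.06% in fed mice, and without fasted PC replicate 1 the fasted value was 0.161%.

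Gls2 (ENSMUSG00000044005, chromosome 10, 128194457 to 128210004, + strand) was measured at 385.6, 65.4 and 99.7 CPM in fasted PC replicates and at 99.7, 118 and 128.2 CPM in fed PC replicates. It was at 754.6, 589.4 and 561.9 CPM in fasted PP replicates and at 472.3, 509.5 and 587.8 CPM in fed PP replicates. All PC libraries lay below all PP libraries, and fasted PC replicate 1 came closest to them. Gls2 averaged 183.6 ± 176 CPM in fasted PC and 115.3 ± 14.5 CPM in fed PC libraries, against 635.3 ± 104 CPM in fasted PP and 523.2 ± 59.0 CPM in fed PP libraries (SD, n = 3 each). In fed mice its PC libraries were even, with a coefficient of variation of 12.5%, against 95.8% in fasted PC libraries. The last bases of Gls2 overlap Spryd4 on the opposite strand, which had a median of 529 counts, and reads of that overlap cannot be assigned to a strand.

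Levels of different genes were compared per length, as CPM per kilobase of exon. In fasted PC libraries Oat averaged 668.4 and Glul 618.3 CPM per kilobase, and in fed PC libraries Oat averaged 722.3 ± 34.7 and Glul 552 ± 125 CPM per kilobase (SD, n = 3). Oat was at 754.2, 685.3 and 727.4 in fed PC replicates 1, 2 and 3 and Glul at 412.9, 589.9 and 653.2. Oat thus lay above Glul in every fed PC library. Before division by length they averaged 1705 CPM for Oat and 1834 CPM for Glul there, so this order depends on the annotation. In fasted PC libraries they could not be ordered, since Glul lay above Oat in replicate 2, at 1095 against 978.3 CPM per kilobase, and below it in replicates 1 and 3. On the same scale Gls2 was at 111, 18.8 and 28.7 and Slc1a2 at 0.996, 48.3 and 42.1 in fasted PC replicates 1, 2 and 3, so Gls2 lay above Slc1a2 in replicate 1 and below it in replicates 2 and 3. In fed PC libraries Gls2 averaged 33.2 ± 4.16 and Slc1a2 17.5 ± 1.27 CPM per kilobase (SD, n = 3), with Gls2 above Slc1a2 in every library. Before division by length the order was the reverse, at 115.3 CPM for Gls2 and 229.2 CPM for Slc1a2. The lengths, over all annotated exons, were 3.474 kb for Gls2 and 13.133 kb for Slc1a2. The transcripts present were not determined, so the order of these 2 genes in fed PC libraries depends on the annotation. In PP libraries the order of levels per kilobase was Gls2, Glul, Oat and Slc1a2, at 182.9, 28.2, 7.79 and 0.0725 in fasted mice and at 150.6, 42.2, 10.3 and 0.184 in fed mice. The most abundant of the 4 transcripts per length in PP libraries was thus the glutaminase. Glul, at lower but still measurable levels there, was the next.

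Zone differences were tested with edgeR's quasi-likelihood test over all 12086 genes, with Benjamini-Hochberg adjustment and a threshold of 0.05. In fasted mice, 3 of the 4 genes were higher in PC than in PP and 0 were lower, where the test called 6.4% of all genes in either direction and 3.35% as higher. The log2 fold change was 4.46 ± 0.94 for Glul, 6.42 ± 0.66 for Oat and 8.72 ± 1.34 for Slc1a2 (± SE), with edgeR adjusted p-values of 0.0234, 7.4e-04 and 0.00501. Gls2, at -1.79 ± 0.54, did not pass (edgeR adjusted p = 0.0907). It did pass with DESeq2 (adjusted p = 0.0241), limma voom (adjusted p = 0.00786) and the edgeR fit that was not robust (edgeR adjusted p = 0.0499). With other scalings, no filter or the fasted libraries alone Gls2 did not pass. None of the 4 genes overlapped between the zones in fasted mice, as was true of 22% of all genes. Without fasted PC replicate 1 all 4 passed, Glul at 4.99, Oat at 6.86, Slc1a2 at 9.29 and Gls2 at -2.95. The edgeR adjusted p-values were then 2.1e-04 for Glul and 9.1e-06 for Gls2. That library was singled out by its values for these genes, so the fit without it is a description only. The call of Glul was lost without replicate 2 or 3 of fasted PC (edgeR adjusted p = 0.0714 and 0.0601) and without replicate 1 or 3 of fasted PP (0.0893 and 0.0909). It was also lost with no filter on low counts (0.0549). In a fit of the 6 fasted libraries alone neither Glul nor Slc1a2 passed (edgeR adjusted p = 0.183 and 0.0978), and Slc1a2 did not pass with limma voom either (adjusted p = 0.117).

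In fed mice, 2 of the 4 genes were called higher in PC and 0 lower, where the test called 4.72% of all genes, 2.24% as higher. Oat had a log2 fold change of 6.13 ± 0.65 and Slc1a2 of 6.58 ± 1.20, with edgeR adjusted p-values of 7.4e-04 and 0.0131. Glul, at 3.71 ± 0.91, and Gls2, at -2.18 ± 0.55, missed the threshold, with edgeR adjusted p-values of 0.0517 and 0.053. None of the 4 genes overlapped between the zones, as was true of 26% of all genes. The fit shares one estimate of spread per gene across groups, and in a fit of the 6 fed libraries alone all 4 genes passed. In that fit edgeR adjusted p was 2.0e-04 for Glul and 6.2e-05 for Gls2. Without fasted PC replicate 1, which is not part of this comparison, edgeR adjusted p was 6.8e-04 for Glul and 2.8e-05 for Gls2. That library was singled out by its values for these genes, so these p-values are a description only. Gls2 also passed without fasted PC replicate 2 (edgeR adjusted p = 0.0124) or 3 (0.0456). The call of Slc1a2 was lost without fed PP replicate 1 (edgeR adjusted p = 0.0638) or 2 (0.0728).

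As the mean of both feeding states, all 4 genes were called, 3 higher and 1 lower in PC, where the test called 13% of all genes, 6.47% as higher and 6.5% as lower. The log2 fold changes were 4.08 ± 0.65 for Glul, 6.28 ± 0.47 for Oat, 7.65 ± 0.90 for Slc1a2 and -1.99 ± 0.38 for Gls2. The edgeR adjusted p-values were 0.00297, 2.7e-05, 5.0e-04 and 0.00719. Oat, Slc1a2 and Gls2 did not overlap between the 6 PC and the 6 PP libraries, as was true of 5.37% of all genes. The median log2 fold change of all genes tested was -0.01. These 4 calls were kept under each of the 20 alternatives run for this contrast, with ranges of 3.73 to 4.36 for Glul, 6.09 to 6.51 for Oat, 7.40 to 7.94 for Slc1a2 and -2.56 to -1.78 for Gls2.

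**Figure D2:**
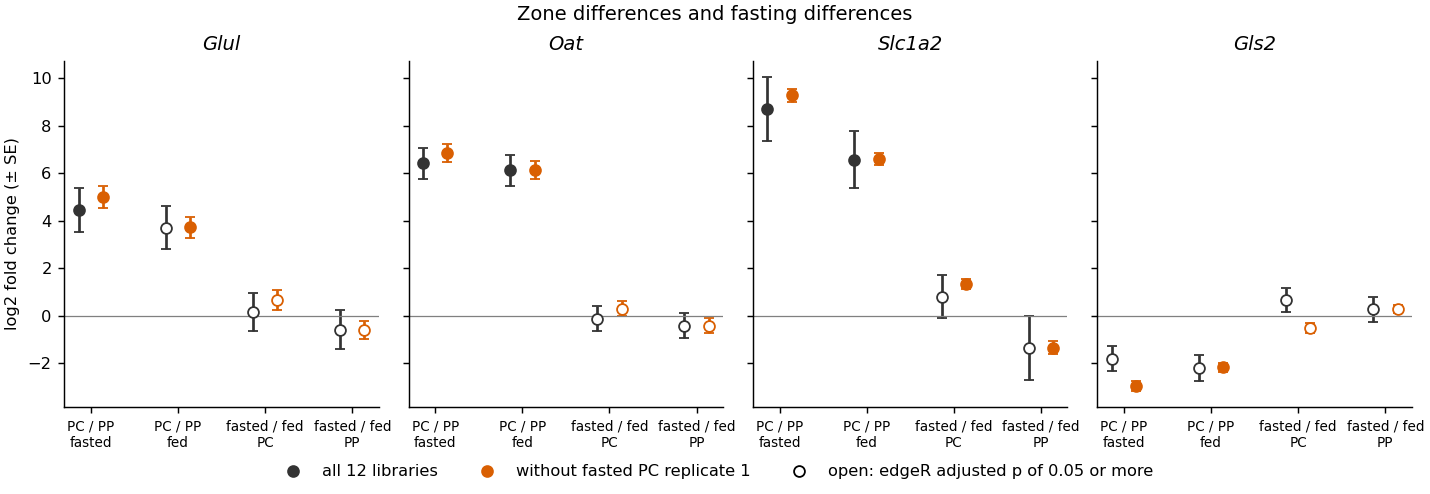
Log2 fold change with its standard error (edgeR) of each gene between zones and between feeding states, from all 12 libraries and without fasted PC replicate 1; filled points had an edgeR adjusted p under 0.05. The zone differences keep their direction in both fits, and the fasted against fed difference of Slc1a2 in PC lies at 0.80 with all libraries and at 1.35 without that library.

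Fasting called 0 of the 4 genes in PC libraries and 0 in PP libraries, where edgeR called 21.4% and 17.9% of all genes at an adjusted p under 0.05. Of the 4 genes, 0 had an unadjusted p under 0.05 in either zone. In PC libraries the fasted against fed log2 fold change was 0.16 ± 0.81 for Glul, -0.11 ± 0.52 for Oat, 0.80 ± 0.90 for Slc1a2 and 0.67 ± 0.53 for Gls2, with edgeR adjusted p-values of 0.912, 0.905, 0.571 and 0.403. In PP libraries it was -0.58 ± 0.82 for Glul, -0.40 ± 0.54 for Oat, -1.34 ± 1.34 for Slc1a2 and 0.28 ± 0.52 for Gls2, with edgeR adjusted p-values of 0.683, 0.664, 0.547 and 0.766. Each difference but that of Gls2 in PC libraries was at most its own standard error. Only Slc1a2 in PP libraries had no overlap between the feeding states, as 34.6% of all genes did in that comparison.

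Fasted PC replicate 1 was singled out by its values for the genes tested here, so p-values without it are a description only. In the fit without that library, Slc1a2 passed in both zones and in opposite directions. Its fasted against fed log2 fold change was then 1.35 ± 0.20 in PC libraries (edgeR adjusted p = 0.00116) and -1.33 ± 0.28 in PP libraries (edgeR adjusted p = 0.00697). That library is not part of the PP comparison, whose fold change was the same with it, and what differed was the standard error, 1.34 with it and 0.28 without it. In a fit of the 6 PP libraries alone Slc1a2 did not pass (-1.33, edgeR adjusted p = 0.0502). In PC libraries this compares 633.8 and 552.4 CPM after fasting with 211.3 to 244.0 CPM in fed mice. The summed level of the 14 pericentral markers moved the same way, at 27160 and 21340 CPM in these 2 fasted PC libraries against 17010 to 17780 CPM in fed PC. It was at 532.2 to 1494 CPM in fasted PP against 1498 to 2494 CPM in fed PP libraries. Cyp2e1 and Cyp2a5, picked after their values were seen, were the largest parts of this sum, averaging 15060 and 5862 CPM in these 2 fasted PC libraries. Taken gene by gene with all libraries, 7 of the 14 markers had a positive fasted against fed difference in PC, with a median of 0.10. In PP 1 did, with a median of -0.91. The part of the marker sum in the difference of Slc1a2 was not tested. Glul, at 0.69, Oat, at 0.31, and Gls2, at -0.50, did not pass in PC libraries in the fit without fasted PC replicate 1. Their edgeR adjusted p-values were 0.291, 0.55 and 0.095. The sign of Oat and of Gls2 was the opposite of that with all libraries.

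The difference between the 2 fasting responses was tested as an interaction, PC minus PP. With all libraries it was 0.75 ± 1.15 for Glul, 0.29 ± 0.75 for Oat, 2.14 ± 1.62 for Slc1a2 and 0.39 ± 0.74 for Gls2 on the log2 scale, each with an edgeR adjusted p of 0.997. The test called 0 of 12086 genes (0%), of which 465 (3.85%) had an unadjusted p under 0.05, and DESeq2 called 11 genes and limma voom 1. Without fasted PC replicate 1, again as a description only, the interaction of Slc1a2 was 2.69 ± 0.34 (edgeR adjusted p = 0.0335). Slc1a2 was 1 of 2 genes called in that fit. The other was Spry4, an inhibitor of receptor tyrosine kinase signalling, at -3.74, which is named here after its value was seen. Over the 20 alternatives the interaction of Slc1a2 ranged from 1.60 to 2.69, and it passed only in the fit without fasted PC replicate 1.

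Fasted PC replicate 1 differed from the mean of the other fasted PC libraries by -4.12 for Glul, -2.24 for Oat, -5.45 for Slc1a2 and 2.22 for Gls2 on the log2 scale. Glul, Oat and Slc1a2 lay below both other libraries and Gls2 above both. Of the 14 pericentral markers, 13 also lay below both other libraries, with a median difference of -0.83 and a range from -4.09 to -0.35. Of the 13 periportal markers, 11 lay above both, with a median of 1.33. Over all 12086 genes the median difference was -0.0047, and 5.05% of genes differed by more than 2-fold in either direction. Cyp2e1, an abundant pericentral cytochrome P450 that was picked after its values were seen, was at 11790 CPM in this library and averaged 15060 CPM in the other 2. Its difference, -0.35, was the smallest of the 14 pericentral markers. Gstm3, Slc13a3 and Lhpp, markers also picked after their values were seen, differed by -4.09, -3.03 and -2.56, more than Oat did. The remaining pericentral markers differed less than Oat. Of the markers that passed the filter on low counts, all 3 of Kupffer cells and all 3 of blood cells also lay below both other libraries. So did 1 of 4 of endothelial cells, 1 of 2 of stellate cells and 2 of 3 of bile duct cells, while 2 of endothelial cells lay above both. The summed blood cell markers were at 1.545, 234 and 4.32 CPM in fasted PC replicates 1, 2 and 3. The part of these differences in the results above was not tested beyond leaving the library out.

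**Figure D3:**
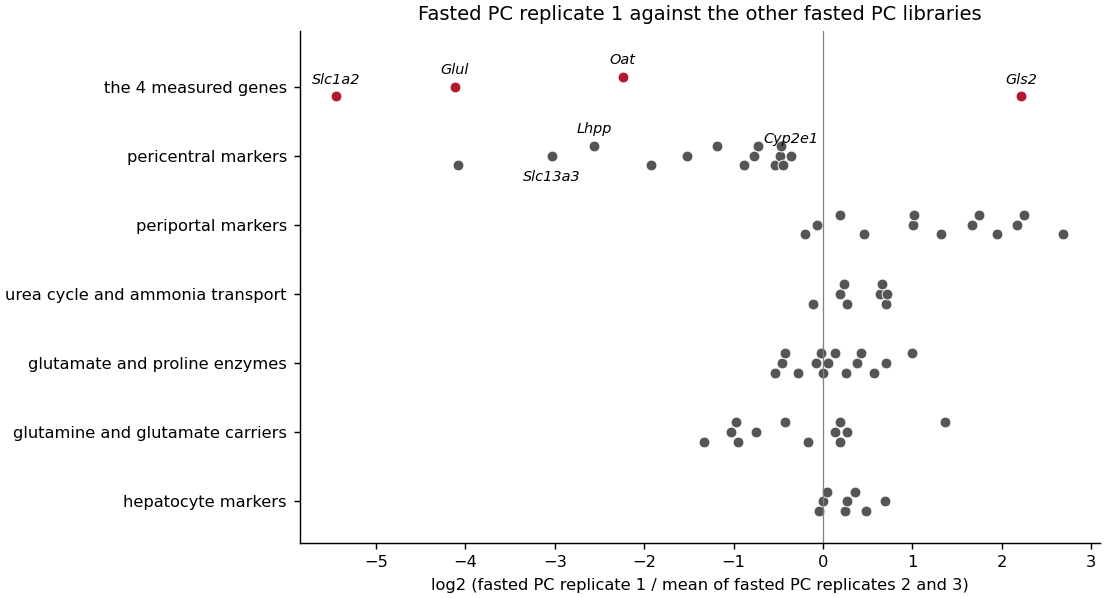
Log2 ratio of the level in fasted PC replicate 1 to the mean of fasted PC replicates 2 and 3, for the 4 genes and for the genes of 6 lists, 1 point per gene. Slc1a2 and Glul lie at -5.45 and -4.12, below the lowest pericentral marker at -4.09, and Gls2 at 2.22 lies within the range of the periportal markers.

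Ratios between genes were taken within each library, and that of Glul to Gls2 was tested by exact permutation of the zone labels within each feeding state, with 400 permutations and a smallest possible p of 0.005 (two-sided, 1 CPM added to each level). The log2 ratio of Glul to Gls2, the synthesising against the hydrolysing enzyme, was -1.16, 5.78 and 4.55 in fasted PC replicates and 3.77, 4.04 and 4.07 in fed PC replicates. It was -3.23, -1.95 and -3.48 in fasted PP replicates and -2.21, -1.55 and -2.01 in fed PP replicates. Glul exceeded Gls2 in 5 of the 6 PC libraries, all but fasted PC replicate 1, and lay below it in all 6 PP libraries. The ratio averaged 3.51 in PC and -2.40 in PP libraries, a difference of 5.91 (exact permutation p = 0.005, the smallest possible). Benjamini-Hochberg adjustment of the permutation p over 5 ratio tests gave 0.00833. The 5 include the ratios described next, which were added after the values were seen. Glul to Oat and Glul to Slc1a2 also reached a permutation p of 0.005, which lowers the adjusted value. Between fasted and fed mice the ratio of Glul to Gls2 differed by -0.94 (exact permutation p = 0.54), and by 0.12 without fasted PC replicate 1.

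The 3 PC genes did not share one ratio across the lobule. The log2 ratio of Glul to Oat averaged -0.04 in PC and 2.36 in PP libraries, and that of Glul to Slc1a2 averaged 2.86 in PC and 5.41 in PP libraries. The differences were -2.40 and -2.56, and no PC library overlapped a PP library in either ratio. These follow from the levels above, where the mean PP level of Glul was a larger share of its PC level than that of Oat or Slc1a2 was. The added 1 CPM is about as large as the level of Slc1a2 in PP libraries and so shrinks its ratios. With 0.1 CPM added the difference of Glul to Slc1a2 was -3.21, and that of Glul to Oat was -2.46. For Oat to Slc1a2 the difference was -0.76 with 0.1 CPM added, -0.15 with 1 CPM and 0.89 with 5 CPM, so no direction is given for it, while the fold changes fitted to the counts were 77.6 for Oat and 201 for Slc1a2. These 3 ratios were added after the values were seen and are given as a description.

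**Figure D4:**
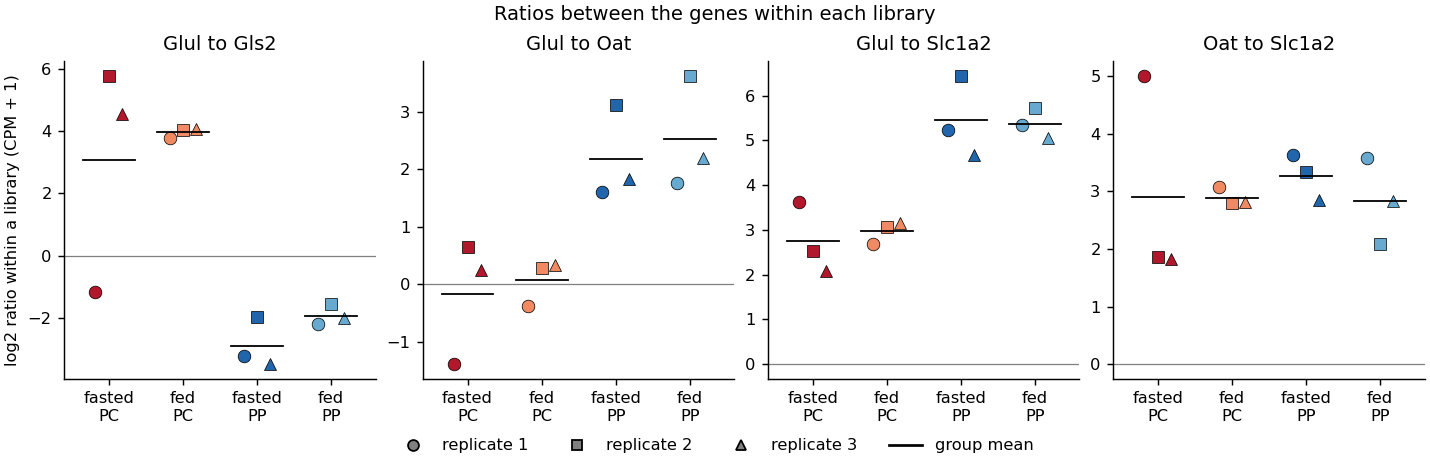
Log2 ratio between 2 genes within each of the 12 libraries, with 1 CPM added to each level; point shapes mark the replicate and lines the group mean. The ratio of Glul to Gls2 averages 3.51 in PC and -2.40 in PP libraries, and those of Glul to Oat and to Slc1a2 are lower in every PC than in every PP library.

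The genes most like each of the 4 in pattern were found among 8157 genes averaging 5 CPM or more, by the root mean square difference of log2 CPM over the 12 libraries after centring each gene on its mean. A smaller value means a closer match, and the measure is a description with no test. For Glul, the closest were Gstm2, a glutathione S-transferase (0.61), Cyp2d9, a cytochrome P450 (0.71), Rcan2, a calcineurin regulator (0.83), Axin2, a brake on beta-catenin signalling (0.88), and Fitm1, a lipid droplet protein (0.89). Gstm2 and Cyp2d9 have near-identical relatives, so their estimated counts are uncertain. For comparison, Glul itself varied about its own mean by 2.17 on this scale.

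For Oat, the closest was Lhpp, a histidine phosphatase (0.26), followed by Slc13a3, a carrier of dicarboxylates (0.60), Tnfrsf19, a receptor of the tumour necrosis factor family (0.81), Gulo, the last enzyme of vitamin C synthesis in mice (0.90), and Rdh9, a retinol dehydrogenase (0.93). Lhpp averaged 139 CPM in fasted PC and 95.8 CPM in fed PC libraries, against 1.19 CPM in fasted PP and 1.77 CPM in fed PP libraries. For Slc1a2, the closest were Slc13a3 (0.76), Lhpp (0.97) and Oat itself (0.99), then Tnfrsf19 (1.43) and Gulo (1.63). Oat and Slc1a2 thus shared 4 of their 5 closest genes other than themselves, while Glul shared none with either. Lhpp, Slc13a3 and Axin2 were also on the list of pericentral markers.

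For Gls2, the closest were Sfxn1, a mitochondrial serine carrier (0.21), Plxna2, a semaphorin receptor (0.28), Ftcd, an enzyme of histidine breakdown (0.31), Gldc, the decarboxylase of the glycine cleavage system (0.38), and Aspg, an asparaginase (0.39). Sfxn1 averaged 53.9 CPM in fasted PC and 28.9 CPM in fed PC libraries, against 199 CPM in fasted PP and 158.3 CPM in fed PP libraries. Gldc was on the list of periportal markers.

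The other genes of glutamine, glutamate and ammonia handling differed less between the zones than Glul, Oat and Slc1a2. As the mean of both feeding states, edgeR called 2 higher and 4 lower in PC of the 15 glutamate and proline enzymes tested, with a median log2 fold change of -0.04, where 6.47% of all genes were called higher and 6.5% lower. Glud1, glutamate dehydrogenase, was at 1330, 1682 and 1537 CPM in fasted PC and 1276, 1419 and 1235 CPM in fed PC replicates, against 1134, 1079 and 1167 CPM in fasted PP and 1188, 958.4 and 902.5 CPM in fed PP replicates. All of its PC libraries lay above all of its PP libraries, a log2 difference of 0.40 ± 0.09 (edgeR adjusted p = 0.0124). Aldh4a1, which oxidises glutamate semialdehyde to glutamate and so follows Oat and proline oxidase, was higher in PC by 0.52 ± 0.09 (edgeR adjusted p = 0.00198).

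Of 12 carriers of glutamine and glutamate tested, 2 were called higher and 3 lower in PC, with a median of -0.21. The 2 higher ones were Slc1a4 and Slc1a5, neutral amino acid carriers of the same family as Slc1a2. Slc1a4 was at 2.42, 4.88 and 5.38 CPM in fasted PC and 13.4, 17.95 and 24.0 CPM in fed PC replicates, against 1.25, 0.967 and 1.00 CPM in fasted PP and 1.15, 1.46 and 3.59 CPM in fed PP replicates. Fed PC libraries lay above all others for this gene, and its zone log2 fold change was 2.58 ± 0.30 (edgeR adjusted p = 1.6e-04). Slc1a5 was higher in PC by 2.49 ± 0.38 (edgeR adjusted p = 9.5e-04). Of 8 genes of the urea cycle and ammonia transport, 1 was higher and 4 were lower in PC, with a median of -0.295. Lower genes included Asl, argininosuccinate lyase, with a zone difference of -1.01 ± 0.17 (edgeR adjusted p = 0.00149), and Arg1, arginase, which releases the ornithine that Oat uses, with one of -0.85 ± 0.13 (edgeR adjusted p = 9.3e-04). Car5a, a mitochondrial carbonic anhydrase, was the 1 higher gene, by 0.57 ± 0.10 (edgeR adjusted p = 0.0024). Of 9 glutamine amidotransferases, enzymes that spend the nitrogen of glutamine, 0 were higher and 2 were lower in PC, with a median of -0.30. When 1 library was left out at a time, these counts ran from 2 to 3 higher and 3 to 6 lower for the enzymes, 2 to 3 and 1 to 3 for the carriers, 1 to 1 and 3 to 4 for the urea cycle list, and 0 to 1 and 0 to 2 for the amidotransferases, and the genes named with a p-value here kept their calls.

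Fasting called some genes of these lists, in counts to be read beside the share of all genes called. Glul, Oat, Slc1a2 and Gls2 did not pass over both zones, with standard errors of 0.58, 0.37, 0.81 and 0.37 on the log2 scale. With errors of that size, the lack of a call does not show that these 4 genes were unmoved. As the mean of both zones the test called 35.3% of all genes between fasted and fed mice, 17.8% as higher and 17.5% as lower. Of the 15 glutamate and proline enzymes 2 were higher and 4 lower after fasting, of the 12 carriers 4 higher and 2 lower, of the 8 urea cycle and ammonia transport genes 2 higher and 0 lower, and of the 9 amidotransferases 0 higher and 5 lower. Their median log2 fold changes were 0.10, 0.16, -0.03 and -0.44, against -0.001 for all genes tested. Counts that left out 1 library at a time ran from 2 to 2 higher and 2 to 4 lower for the enzymes, 4 to 5 and 1 to 2 for the carriers, 2 to 2 and 0 to 1 for the urea cycle list, and 0 to 1 and 5 to 5 for the amidotransferases.

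Got1, cytosolic aspartate aminotransferase, was at 351.7, 389.8 and 349.8 CPM in fasted PC and 101.6, 102.8 and 98.0 CPM in fed PC replicates, and at 779.1, 458 and 650.5 CPM in fasted PP and 166.4, 182.1 and 205 CPM in fed PP replicates. It was higher in every fasted than in every fed library, with a log2 fold change of 1.85 ± 0.17 in PC (edgeR adjusted p = 3.6e-05) and 1.77 ± 0.17 in PP (edgeR adjusted p = 6.1e-05). Slc38a2, a sodium-coupled carrier of glutamine and alanine, averaged 207 ± 57.4 CPM in fasted PC against 73.6 ± 7.68 CPM in fed PC libraries, and 285.7 ± 50.9 CPM in fasted PP against 99.1 ± 9.03 CPM in fed PP libraries (SD, n = 3 each). Its log2 fold change was 1.49 ± 0.20 in PC (edgeR adjusted p = 3.5e-04) and 1.53 ± 0.20 in PP (edgeR adjusted p = 4.4e-04). Arg1 rose by 0.84 ± 0.13 over both zones (edgeR adjusted p = 4.0e-04).

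The 5 called amidotransferases were all lower after fasting. Cad, which starts pyrimidine synthesis from glutamine, was at 7.11, 7.04 and 8.26 CPM in fasted PC and 25.2, 23.5 and 22.2 CPM in fed PC replicates, and at 9.13, 7.16 and 12.0 CPM in fasted PP and 30.6, 26.5 and 37.1 CPM in fed PP replicates. The feeding states did not overlap in either zone, and on the log2 scale Cad fell by 1.66 ± 0.18 in PC (edgeR adjusted p = 1.3e-04) and fell by 1.73 ± 0.18 in PP (edgeR adjusted p = 1.2e-04). Gfpt1, which makes glucosamine phosphate, fell by 1.37 ± 0.13 over both zones (edgeR adjusted p = 9.4e-06). The other lower amidotransferases were Ctps, Gmps and Ppat, enzymes of nucleotide synthesis, which are named after their values were seen. After fasting Slc1a4 fell by 2.13 ± 0.39 in PC libraries (edgeR adjusted p = 0.00302), the direction opposite to that of Slc1a2 in the fit without fasted PC replicate 1.

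**Figure D5:**
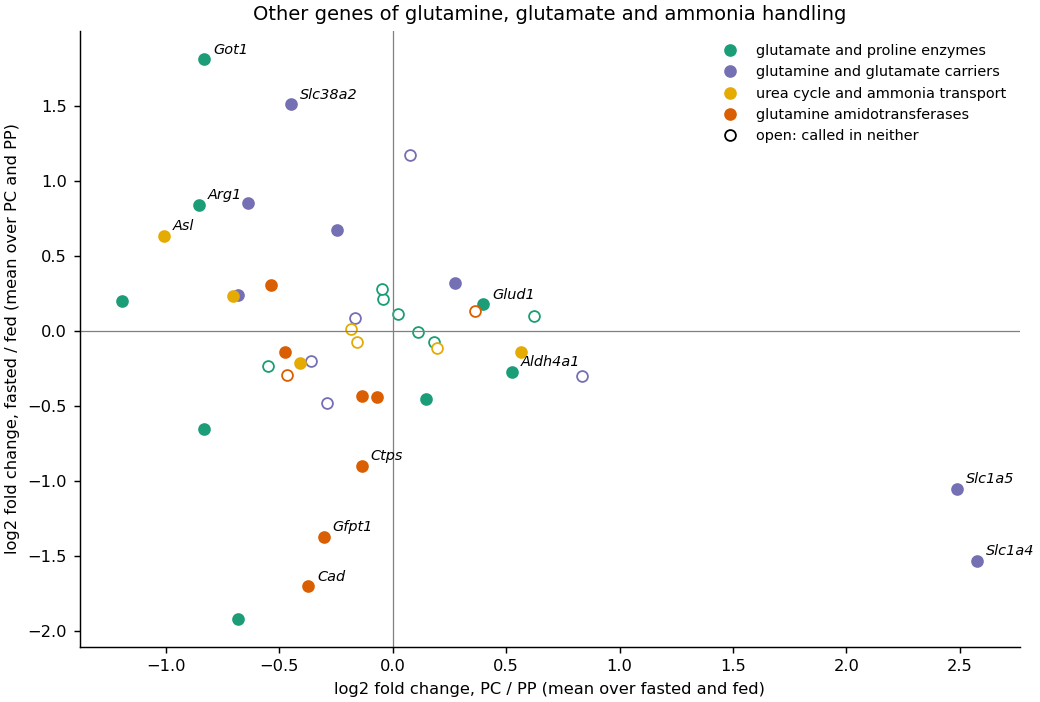
Log2 fold change between zones (PC / PP, mean over fasted and fed) and between feeding states (fasted / fed, mean over PC and PP) of the tested genes of 4 lists; filled points were called by edgeR in at least 1 of these contrasts, and Arg1, on 2 lists, is drawn as an enzyme. Slc1a4 and Slc1a5 lie at 2.58 and 2.49 on the zone axis, while Got1, at 1.81, has the highest value on the fasting axis.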

How the data were processed

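Messenger RNA of hepatocytes was sequenced from NEBNext Ultra libraries, which do not mark strand, per the labels' protocols. The deposited values are estimated counts for each gene, made with kallisto 0.46.0 on mm10, per the submitters' processing notes. The transcript annotation and the way transcripts were summed to genes are not given in the sources used here. Between 28% and 32.8% of a library's values were not whole. Values were rounded, which moved a library total by at most 121 counts.

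Symbols, coordinates and exon lengths came from GENCODE M21, which matched 27566 of 28030 identifiers. Levels are CPM, counts scaled to library sizes that carry edgeR's TMM factors. Genes kept by filterByExpr were fitted with a mean per group in edgeR 4.0.16 (R 4.3.3, quasi-likelihood, robust, 8 residual degrees of freedom), with Benjamini-Hochberg adjustment over all genes tested. The standard error (SE) is the unshrunk log2 fold change over the root of its F statistic. Alternatives used DESeq2 1.42.0, limma 3.58.1, other scalings, no filter, a replicate block, only the groups compared, and each library left out. The edgeR fits were run on simulated counts that held no deviating library, so that run does not cover a case like fasted PC replicate 1.

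Replicates are biological per the labels, which leave unsaid whether PC and PP libraries of one number share a mouse. Chi-square per degree of freedom between libraries of a group was 23.9 to 79.8, so none agreed within sampling noise. The genes, lists and tests were chosen with earlier results of these data known. Named in the text are the genes under study, the 5 genes closest to each in pattern, and up to 2 called genes per direction, list and comparison with the largest log2 fold change; exceptions are marked. Some genes that this rule picks are not reported here by name; the counts over their lists include them. No column was left unmapped.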

Additional observations from a re-analysis of the deposited data

How the results depend on the processing

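With the libraries left out one at a time, the number of the 4 genes called between zones ran from 1 to 4 in fed mice and from 2 to 4 in fasted mice, and from 0 to 1 for fasting in PC, fasting in PP and the interaction. Counts over all genes ran from 292 to 701 (zone, fed), 386 to 1005 (zone, fasted), 1593 to 2618 (fasting in PC), 1405 to 2414 (fasting in PP) and 0 to 2 (interaction), against 570, 774, 2582, 2162 and 0 with all libraries. In fed mice the zone test called all 4 genes with DESeq2, limma voom, the fit that was not robust and the fit of the compared groups alone, and 929 genes in all with DESeq2 and 1174 with limma voom. In fasted mice the fit of the compared groups alone called 1 of the 4 genes and 376 genes in all. The interaction called 1 gene with no filter, 11 with DESeq2 and 1 with limma voom.

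Signs that turned belonged to differences that did not pass. With 1 library left out at a time, the fasting difference in PC ran from -0.54 to 0.69 for Glul, -0.49 to 0.31 for Oat and -0.50 to 1.08 for Gls2. The interaction ran from -0.09 to 0.71 for Oat and -0.78 to 0.80 for Gls2. Over both zones the fasting difference ran from -0.56 to 0.055 for Glul, -0.52 to 0.009 for Slc1a2 and -0.11 to 0.68 for Gls2, and that of the ratio of Glul to Gls2 from -1.62 to 0.12. The zone difference of the ratio of Oat to Slc1a2 ran from -0.68 to 0.11, and was 0.89 with 5 CPM added. One end of each of these ranges came without fasted PC replicate 1, and the other without fasted PC replicate 2 or, for the ratio of Oat to Slc1a2, replicate 3. In PC, limma voom gave fasting differences of 0.014 for Oat and -0.20 for Gls2 and an interaction of -0.49 for Gls2, and the replicate block gave -0.20 for Glul. The cause of these turns was not tested.

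Deviations from group means correlated at -0.115 to 0.269 between libraries of the same replicate number, over 0.1 in 3 of 18 pairs. All 3 were among the 6 pairs that join the zones within a feeding state under the same number, and of the 12 pairs that join them under different numbers 1 was over 0.1. The labels do not say that a number marks a shared mouse, and not every pair passed 0.1, so the libraries were treated as unpaired, and a shared mouse within a feeding state was not settled. With the replicate number as a block over all groups, the zone test called 625 genes in fed mice and 796 in fasted mice, and the call of none of the 4 genes changed in any comparison. With the replicate block within each feeding state, added after the data were seen, it called 744 genes in fed mice and 882 in fasted mice. Gls2 then passed in fed and in fasted mice (edgeR adjusted p = 0.037 and 0.0351), Glul did not pass in fasted mice (0.131), and the interaction of Gls2 was -0.035. Slc1a2 in PP libraries rests on few counts, and 3 libraries per group limit every fasting comparison.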

Other observations

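Of the 7 tested genes within 500 kb of Oat on chromosome 7, edgeR called 1 higher and 2 lower in PC as the mean of both feeding states. The higher one was Lhpp, at 132610638 to 132706420, whose span begins 34.2 kb from that of Oat and whose log2 difference was 6.32 ± 0.51 (edgeR adjusted p = 5.0e-05), beside 6.28 ± 0.47 for Oat. Lhpp was also the gene closest to Oat in pattern over the 12 libraries. Fgfr2, a fibroblast growth factor receptor whose annotated span covers Oat, had a log2 difference of -4.58 ± 0.39 (edgeR adjusted p = 4.6e-05), and Fam53b one of -0.63 ± 0.17 (edgeR adjusted p = 0.0287). The annotated span of Fgfr2, 130162451 to 133123350, also covers Lhpp and Fam53b. Fgfr2 counts as near Oat by that span only, and which part of it is transcribed in these cells was not examined. The other 4, Eef1akmt2, Abraxas2, Zranb1 and Ctbp2, had log2 fold changes between -0.33 and 0.06 and were not called. Within the same distance, 0 of 3 tested genes around Glul and 1 of 7 around Slc1a2 were called, that gene lower in PC, and around Gls2 3 of 43 were higher and 3 lower. These neighbourhoods were looked at after the values were seen, and a share of 13% of all genes was called in this contrast.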
